A study of Mus musculus with 59 samples.

Results

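The expression of 50 genes of the cell cycle and of DNA replication was followed in sorted mouse bone marrow progenitors that lacked Daxx, Pu.1 or both. Daxx is a chaperone that deposits the histone variant H3.3, and Pu.1, encoded by Spi1, is a transcription factor of the myeloid and B cell lineages. The genes were chosen by name for their known roles and fall into 23 S-phase genes, 20 mitotic genes and 7 genes that control passage through G1, out of 51810 to 51812 genes in each deposited table. All 50 passed the filter on low values (a mean of at least 10) in every comparison. Expression was measured by RNA-seq in 2 populations, KLS cells, which are lineage-negative, c-Kit+ and Sca-1+ and include the haematopoietic stem cells, and granulocyte-monocyte progenitors (GMPs), which are lineage-negative, c-Kit+, Sca-1-, CD16/32+ and CD34+.

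All mice were C57BL/6 and carried 1 copy of a Cre transgene (Cre +/-), controls included. The control (WT) libraries were Daxx +/+, or Pu.1 +/+ in the Pu.1 line, and the deleted libraries were Daxx F/F (Daxx-KO), Daxx F/F Pu.1 F/F (DKO) or Pu.1 F/F (Pu.1-KO). In the libraries with a labelled time, Cre came from Mx1Cre, an interferon-inducible transgene switched on by injection of pI:pC, and cells were sorted 3 weeks post induction (3 w.p.i.), or 24 w.p.i. for 4 WT libraries. Mx1Cre acts in many cells besides blood progenitors, and pI:pC itself raises interferon in WT and deleted mice alike. A further set of KLS cells and GMPs, with 2 WT and 2 Daxx-KO libraries each, carries no time and no mouse line on its labels and is called untimed here. The study's methods also describe KLS cells and GMPs of donor origin taken from irradiated, transplanted mice, prepared with other RNA and library kits than cells taken directly from induced mice. For RNA-seq of these 2 populations the paper describes mice at 3 w.p.i., mice at 24 w.p.i. and transplanted mice, and libraries of both time points are labelled as such. Whether the untimed set is the transplantation experiment is not on the labels. At 3 w.p.i. there were 3 WT, 3 Daxx-KO and 2 DKO libraries of each population, and 2 WT and 2 Pu.1-KO libraries of each in the Pu.1 line. The ages of the mice, and whether each library came from 1 mouse, are not on the labels. The paper gives a usual age range at treatment and describes the replicates of its genomic assays as biological. The p-values measure the spread between libraries, which may in part be technical. In the tables at 3 w.p.i. the same animal numbers head the KLS and GMP columns, so those KLS and GMP libraries came from the same mice. Libraries without a number of their own are named by letters, and 1 WT KLS library at 3 w.p.i. is called the unnumbered WT library (u). In the Pu.1 line, at 24 w.p.i. and for library u, no column name could be matched to a sample title. Their genotype was taken from the control or treatment mark that the same libraries carry in the deposited repeat-element values. GMP columns at 3 w.p.i. took the genotype of their animal number in the KLS titles, or the mark of library u for 1 WT library.

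Before a cell divides it passes from G1 through S phase, in which DNA is copied, and G2 into mitosis. D-type cyclins with Cdk4 or Cdk6 inactivate the retinoblastoma protein, which frees E2F factors to switch on genes for origin licensing, the replicative helicase, the polymerases and nucleotide synthesis, along with the E-type cyclins. Mitotic genes are switched on later, by B-Myb and FoxM1, and are held silent in resting cells by the DREAM complex. In bone marrow, most long-term stem cells rest, whereas GMPs divide quickly. In RNA from a sorted population, fewer dividing cells and less RNA of these genes per cell cannot be told apart.

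The 2 classes of genes differ in their promoters, and 7 promoters are shown because they carry the letters that E2F and the mitotic regulators are known to read. Promoters were taken from RefSeq (build GRCm38.p6, 250 bases before to 50 bases after the annotated start), with which 39 of the 50 genes could be matched. Mcm4, Gins1, Gins2, Pole, Ccne2, Ccna2, Cdc25c, Aurkb, Tpx2, Ccnd1 and Ccnd2 had no entry. The searches, on both strands, were for TTTGGCGC or TTTCCCGC (E2F), for TTTGAA or TTCGAA (the cell cycle genes homology region, CHR, which DREAM and B-Myb complexes bind) and for CCAAT (the box of NF-Y). E2F letters were in 8 of 18 S-phase genes (44.4%), in none of 16 mitotic genes and in 1.8% of all 27025 genes with a promoter. CHR letters were in 12 of 16 mitotic genes (75%), 4 of 18 S-phase genes (22.2%) and 21.7% of all genes. CCAAT was frequent in both, at 87.5% of mitotic and 72.2% of S-phase genes against 41.1% of all genes. These matches are letters in a window and do not show that a factor was bound.

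The 160 bases before the start of 3 S-phase genes and 4 mitotic genes follow, 5′ to 3′ on the strand of the gene, with the matched letters in capitals (E2F, CHR or CCAAT, or their complement). The regions are Cdc6 (chr11:98907991-98908150, plus strand), Mcm5 (chr8:75109349-75109508, plus strand), Mcm6 (chr1:128359706-128359865, minus strand), Mki67 (chr7:135716380-135716539, minus strand), Top2a (chr11:99024190-99024349, minus strand), Cdk1 (chr10:69352913-69353072, minus strand) and Cdc20 (chr4:118437344-118437503, minus strand). In Cdc6 the E2F letters lie 138 to 131 bases before the start, Mcm6 holds a pair of them, and in Cdc20 the CHR letters lie 18 to 13 bases before the start, between 2 CCAAT boxes.
Cdc6: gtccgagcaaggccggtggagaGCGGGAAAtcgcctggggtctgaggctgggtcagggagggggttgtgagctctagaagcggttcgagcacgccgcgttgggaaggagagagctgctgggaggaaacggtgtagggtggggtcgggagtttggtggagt
Mcm5: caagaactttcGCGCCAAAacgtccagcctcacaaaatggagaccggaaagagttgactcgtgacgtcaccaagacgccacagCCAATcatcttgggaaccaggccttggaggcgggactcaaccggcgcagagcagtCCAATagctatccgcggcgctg
Mcm6: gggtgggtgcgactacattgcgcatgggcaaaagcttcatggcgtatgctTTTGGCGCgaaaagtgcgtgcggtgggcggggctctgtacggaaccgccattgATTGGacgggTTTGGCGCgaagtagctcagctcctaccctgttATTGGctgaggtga
Mki67: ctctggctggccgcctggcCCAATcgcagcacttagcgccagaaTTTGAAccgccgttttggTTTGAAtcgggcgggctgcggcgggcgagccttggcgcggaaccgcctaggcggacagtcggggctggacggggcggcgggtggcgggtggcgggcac
Top2a: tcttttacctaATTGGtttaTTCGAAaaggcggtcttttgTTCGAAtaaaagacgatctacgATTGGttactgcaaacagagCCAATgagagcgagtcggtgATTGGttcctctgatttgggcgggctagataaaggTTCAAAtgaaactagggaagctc
Cdk1: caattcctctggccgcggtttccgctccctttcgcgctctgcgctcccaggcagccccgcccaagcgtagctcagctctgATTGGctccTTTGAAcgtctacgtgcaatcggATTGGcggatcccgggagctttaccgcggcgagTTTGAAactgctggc
Cdc20: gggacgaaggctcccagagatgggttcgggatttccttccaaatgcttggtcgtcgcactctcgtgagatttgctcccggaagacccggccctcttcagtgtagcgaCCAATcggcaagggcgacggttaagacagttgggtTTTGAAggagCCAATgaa

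**Figure D1:**
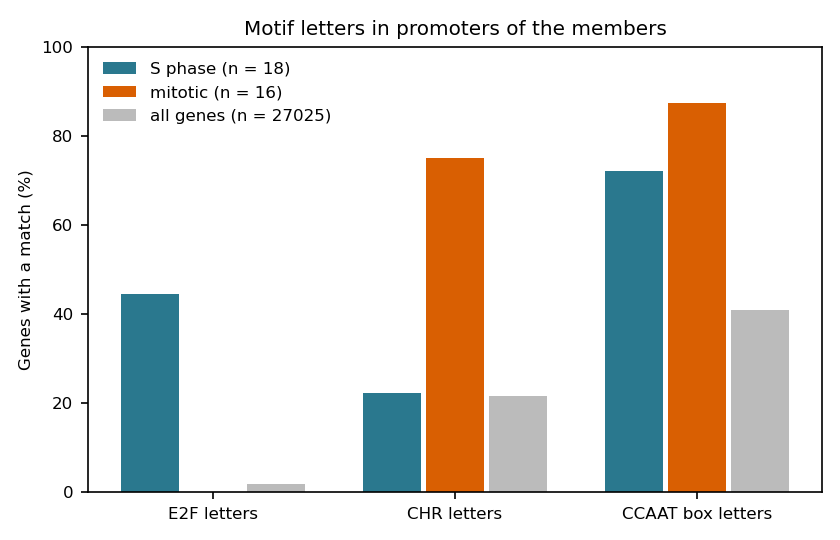
Percentage of genes whose promoter holds the letters searched for E2F, CHR and the CCAAT box, for S-phase members, mitotic members and all genes with a RefSeq promoter. E2F letters were found in 44.4% of S-phase and 0% of mitotic members, and CHR letters in 22.2% and 75%.

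Facts of all libraries set the frame for the values that follow. The 36 libraries held 3388906 to 29335964 gene reads, and the untimed set was the most uneven, where WT KLS libraries held 3857858 and 3942149 reads and Daxx-KO KLS libraries 6343790 and 22647397. Daxx, whose floxed exons are 2 to 7, was lower in every library that lacked it, at 82.6, 102 and 72.2 normalized read counts in KLS cells without Daxx at 3 w.p.i. against 423, 467 and 505 in WT, with no overlap in any comparison of deleted with WT libraries. Spi1 was higher in the KLS libraries labelled DKO, at 3330 and 2993 against 1676, 1669 and 2320 in WT (log2 difference 0.76, adjusted p = 0.0155). In the GMP libraries assigned to Pu.1-KO it lay below WT without overlap, at 2589 and 2707 against 3395 and 3934, and did not pass (-0.46 ± 0.24, adjusted p = 0.153). In the KLS libraries assigned to Pu.1-KO it overlapped with WT, at 2920 and 1307 against 2764 and 2080. In the untimed Daxx-KO libraries it lay above WT, at 1093 and 1155 against 439 and 400 in KLS cells. The untimed GMP values were 1930 and 2114 against 1117 and 1112. A gene-level count cannot tell deleted from kept exons, so the Pu.1 deletion was not checked here. DKO and Pu.1-KO are used as group names throughout. KLS cells and GMPs differed in their defining genes in the WT libraries at 3 w.p.i., with the stem cell gene Mecom at 17156 to 28878 against 250.3 to 1069 normalized read counts in separate tables, and Hoxb5, another stem cell gene, was listed at 0 in all libraries.

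In WT cells at 3 w.p.i., transcripts of both classes were more abundant in GMPs than in KLS cells. The 23 S-phase genes summed to 2036, 2623 and 2704 reads per 1000000 gene reads (RPM) in the KLS libraries and to 4820, 4857 and 4786 in the GMP libraries, so that the groups did not overlap. The 20 mitotic genes summed to 1032, 1779 and 2854 in KLS cells and 6022, 4089 and 7368 in GMPs, again without overlap but with a wider spread in both. The median ratio of GMP to KLS levels was 2.18 for S-phase genes and 2.90 for mitotic genes, against 0.901 over all 13465 genes with a mean of at least 10 in both tables. All GMP libraries exceeded all KLS libraries for 22 of 23 S-phase and 15 of 20 mitotic genes, where 24.6% of all genes did so. The largest S-phase ratio was 4.23, for E2f2, a transcriptional activator of S-phase genes, and the largest mitotic ratio was 4.33, for Plk1, the kinase that drives spindle assembly and mitotic exit. These are descriptions across tables that were scaled separately, and no test was run between them.

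The order of the 2 classes was not the same in the other WT sets. In the untimed set the median ratio of GMP to KLS levels was 1.68 for S-phase genes and 1.03 for mitotic genes, in the Pu.1 line 1.20 and 1.59, and at 24 w.p.i. 1.08 and 1.43. Over all genes the ratio was 1.04, 0.756 and 0.956 in the same sets. The untimed WT GMPs combined 4150 and 4352 RPM of S-phase genes with 1965 and 2113 of mitotic genes, about the mitotic level of the untimed WT KLS libraries (2110 and 2099). The G1 genes did not follow either class, with median ratios of 0.773 to 0.964 in the 4 sets. Ccnd3, the D-type cyclin of lymphoid and erythroid cells, was lower in GMPs, at 0.413 of the KLS level at 3 w.p.i., and so was Ccnd1 at 0.325 in the Pu.1 line and 0.272 at 24 w.p.i.

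Per kilobase of exon, the most abundant member in WT KLS cells at 3 w.p.i. was Cdk6, the D-cyclin kinase of blood progenitors, at 117.9 ± 8.11 RPM per kilobase (SD, n = 3). It was followed by Mki67, the coat protein of mitotic chromosomes used as a proliferation marker, at 82.8 ± 37.4, and by the helicase subunits Mcm3 at 79.1 ± 7.40 and Mcm6 at 78.9 ± 8.68, and these last 3 did not differ beyond their spread. In WT GMPs Mki67 came first at 274 ± 64.0, above Mcm3 at 153 ± 11.1 and Mcm6 at 139 ± 4.28, while Top2a, the topoisomerase that untangles chromosomes, and Cdk6 shared the next place at 114 ± 38.3 and 114 ± 31.4. The lowest members were Cdc25c, a phosphatase that activates Cdk1, at 0.953 ± 0.470 in KLS cells, and Ccnd1 at 2.39 ± 1.32 in GMPs.

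**Figure D2:**
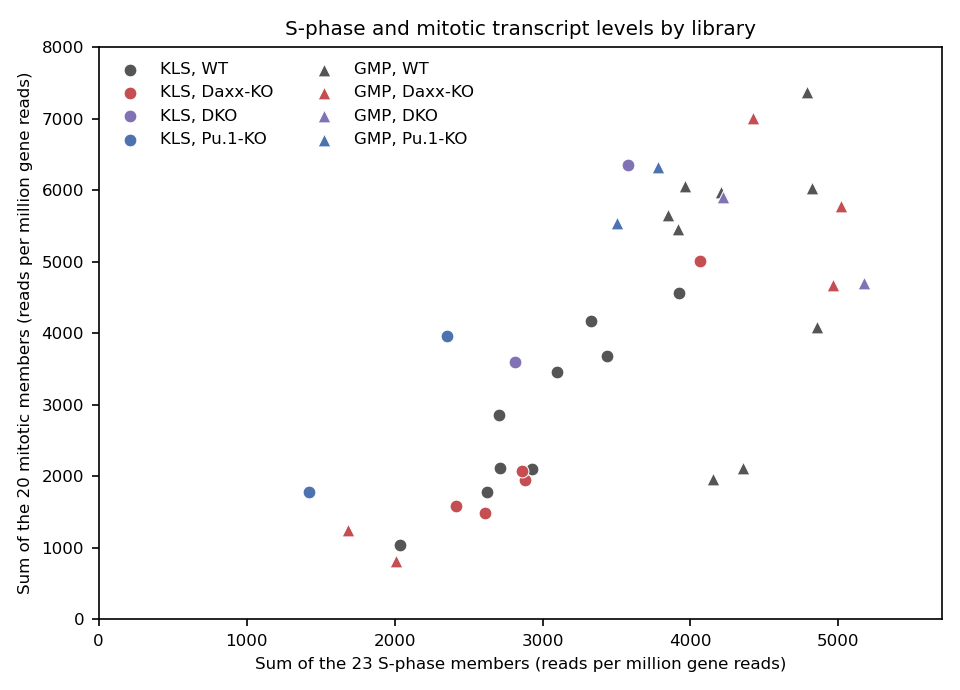
Sum of the 20 mitotic members against the sum of the 23 S-phase members, both in RPM, in each of 36 libraries (circles, KLS cells; triangles, GMPs; colours, genotype). The 2 untimed Daxx-KO GMP libraries lie at 2012 and 1683 on the S-phase axis, far left of their WT controls at 4150 and 4352.

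The effect of Daxx loss on cell cycle genes was measured first in the untimed GMPs, where the S-phase genes fell together. Of the 50 genes 41 fell and 1 rose in Daxx-KO against WT, when 16.5% of the 12744 genes tested fell, 16.6% rose and 33.0% changed either way (limma on log2 normalized read counts, Benjamini-Hochberg adjusted p under 0.05 over all genes tested, as in every comparison here). The log2 level fell by a median of 1.00 over the 50 genes, against a median difference of -0.01 over all genes. All 23 S-phase genes fell, by a median of 1.18 on the log2 scale, and 14 of 20 mitotic genes fell, with a median difference of -0.86. The other 6 mitotic genes, Ccnb1, Nusap1, Plk1, Cdc25b, Cdc25c and Aurka, had differences of -0.84 to -0.02 that did not pass.

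Origin licensing and the helicase come first in S phase. Mcm2, a subunit of the helicase loaded at origins, stood at 1506 and 1616 normalized read counts in WT GMPs and at 882 and 801 in Daxx-KO, a difference of -0.89 ± 0.10 on the log2 scale (SE, adjusted p = 0.000192). Mcm5 stood at 1880 and 2137 against 1125 and 829 (-1.05 ± 0.14, adjusted p = 0.000597). Mcm3 stood at 2074 and 2207 against 983 and 868 (-1.21 ± 0.10, adjusted p = 4.51e-05). In each of these the lower WT library lay well above the higher Daxx-KO library. Mcm7 (1241 and 1524 against 580 and 516), Cdc45, which completes the active helicase (766 and 818 against 337 and 307), and Mcm10, a firing factor (515 and 548 against 189 and 198), fell by 1.33, 1.30 and 1.45.

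The genes of synthesis itself followed. Pole, the leading-strand polymerase, stood at 1163 and 1223 in WT and 515 and 457 in Daxx-KO, 2.46-fold lower (adjusted p = 4.64e-05). Rrm1, the large subunit of ribonucleotide reductase, was 2.45-fold lower at 671 and 777 against 1690 and 1854, and Tyms, thymidylate synthase, 2.69-fold lower at 195 and 186 against 529 and 498. Pcna, the sliding clamp, fell less, from 889 and 1111 to 608 and 497 (log2 difference -0.85 ± 0.14, adjusted p = 0.0018). Ccne1, the cyclin that starts S phase with Cdk2, fell from 124 and 115 to 64.9 and 51.0 (-1.04 ± 0.25, adjusted p = 0.0115). The differences of all 23 S-phase genes ran from -1.73 for Gins1, a helicase subunit, to -0.65 for E2f1.

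Among mitotic genes, Top2a stood at 2193 and 2303 in WT and 815 and 1081 in Daxx-KO (log2 difference -1.26 ± 0.13, adjusted p = 0.000135). Mki67 stood at 4677 and 5480 against 2273 and 3885 (-0.77 ± 0.21, adjusted p = 0.019), and Ccnb1, the cyclin of mitotic entry, at 114 and 93.1 against 56.8 and 86.1 (-0.56 ± 0.28, adjusted p = 0.165). All 3 were lower in both Daxx-KO libraries, but the second library lay closer to WT. The mean log2 level relative to WT was -1.09 and -1.26 for S-phase genes in Daxx-KO libraries 1 and 2, and -1.19 and -0.57 for mitotic genes, so that the libraries agreed on S phase and differed on mitosis.

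**Figure D3:**
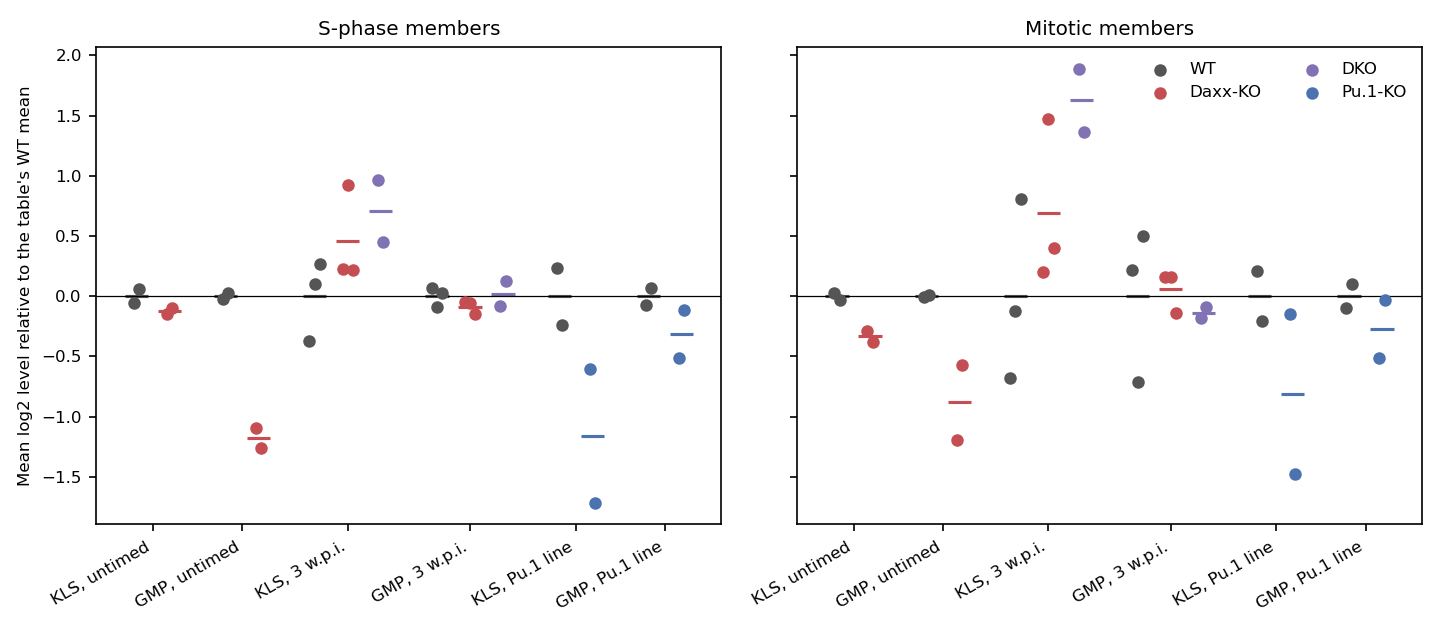
Mean log2 level of the 23 S-phase members (left) and the 20 mitotic members (right) in each library relative to the mean of the WT libraries of its table (points, libraries; bars, group means). S-phase values of the untimed Daxx-KO GMPs were -1.09 and -1.26, and mitotic values of the DKO KLS libraries were 1.89 and 1.36, above the 3 WT libraries.

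The G1 genes of untimed GMPs moved in both directions. Ccnd2, the D-type cyclin of growth factor signalling, stood at 1101 and 1206 in WT and 357 and 321 in Daxx-KO, 3.40-fold lower (adjusted p = 1.44e-05). Ccnd1 fell from 84.6 and 86.7 to 36.5 and 22.4 (log2 difference -1.55 ± 0.34, adjusted p = 0.00762), Cdk4 by 0.80 on the log2 scale, and Cdkn1b, the inhibitor p27, from 282 and 253 to 176 and 162 (-0.66 ± 0.16, adjusted p = 0.0113). Ccnd3 alone rose, by 0.73. Cdk6 stood at 20794 and 20949 against 25117 and 23482 (0.22 ± 0.09, adjusted p = 0.0808), and Cdk2 had a difference of -0.18, neither of which passed. Of the wider list of 104 pathway genes, 36 of 40 further S-phase genes fell and none rose, led by Clspn (778 and 812 against 302 and 312), a replication checkpoint adaptor, Uhrf1 (1492 and 1592 against 620 and 487), a reader of newly copied methylated DNA, and Lig1 (1358 and 1329 against 647 and 576), which seals Okazaki fragments. Of 50 further mitotic genes 35 fell and 1 rose. Among CDK inhibitors, Cdkn1c (p57) rose from 2.60 and 1.81 to 97.3 and 141 normalized read counts, while Cdkn1a (p21) fell from 62.4 and 61.4 to 16.2 and 15.9 (adjusted p = 0.00449).

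Markers of cell stage moved with this fall. The 8 late neutrophil genes summed to 710 and 989 RPM in WT and to 4954 and 6954 in Daxx-KO, where 3 rose and 2 fell. S100a8, a calprotectin subunit of neutrophils and monocytes, went from 2467 and 2368 to 14320 and 21805 normalized read counts. The 8 GMP genes summed to 10503 and 10579 against 10068 and 9557 RPM, with 4 higher and 3 lower, among them Csf1r, the receptor of the monocyte lineage, at 809 and 997 against 139.9 and 81.2. No GMP marker was at 0 in any of these libraries. Genes of the sort itself also differed. Fcgr3, which encodes CD16, stood at 654 and 712 in WT against 87.2 and 19.6 in Daxx-KO, and Cd34 at 436 and 556 against 75.0 and 24.9. Kit lay the other way, at 3373 and 3439 against 4580 and 4380. The part of cell stage in the fall was not tested. With 2 libraries in each group, leaving 1 out left a group without a spread of its own.

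In untimed KLS cells fewer of the genes passed, and the steps were small outside the D-type cyclins. Of the 50 genes 2 rose and 10 fell in Daxx-KO, when 23.1% of 13508 genes changed, 10.6% up and 12.5% down, so the share changed (12 of 50) was near that of all genes. Median log2 differences were -0.25 over the 50 genes, -0.25 for S-phase genes, -0.34 for mitotic genes and 0.03 over all genes, and without WT library 2 the S-phase median was -0.08. Of the mitotic genes 6 fell (Mki67, Top2a, Bub1, Kif11, Tpx2 and Nusap1) and 19 of 20 had a negative difference. Only Pola1 and Prim1, the subunits of primase with its polymerase, fell among the S-phase genes.

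Mki67 stood at 5171 and 5519 normalized read counts in WT and 4120 and 3777 in Daxx-KO, 1.35-fold lower (adjusted p = 0.0142), and Top2a at 2666 and 2808 against 2165 and 2003, 1.31-fold lower (adjusted p = 0.0214). Tpx2, which builds the spindle with Aurora A, stood at 707 and 735 against 419 and 461 (log2 difference -0.71 ± 0.12, adjusted p = 0.00344), and the spindle motor Kif11 at 1058 and 1123 against 806 and 725 (-0.51 ± 0.11, adjusted p = 0.0122). The steps of these 4 genes were small. Nusap1, a spindle protein, stood at 540 and 393 against 299.7 and 275, and the checkpoint kinase Bub1 at 432 and 434 against 330 and 282, with adjusted p of 0.0239 and 0.035. Ccnb1, at 110 and 188 against 108 and 118, overlapped between the groups (adjusted p = 0.419).

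Pola1 stood at 4332 and 4973 in WT and 3754 and 3362 in Daxx-KO (log2 difference -0.39 ± 0.11, adjusted p = 0.0374). Pcna, at 982 and 1080 against 686 and 861, just missed the threshold (-0.42 ± 0.14, adjusted p = 0.0553). The helicase subunits Mcm2 (857 and 904 against 953 and 1109, adjusted p = 0.214) and Mcm5 (1042 and 811 against 1001 and 1081, adjusted p = 0.401) and Ccne1 (37.8 and 29.3 against 73.3 and 53.9, adjusted p = 0.109) lay higher on average in Daxx-KO without passing. Of the 23 S-phase genes 8 had a positive and 15 a negative difference, and only Pola1 and Prim1, both lower, passed.

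The D-type cyclins, which link outside signals to the cycle, held the widest differences of these cells. Ccnd2 stood at 1431 and 1700 in WT KLS cells and 232 and 199 in Daxx-KO, 7.23-fold lower (adjusted p = 6.28e-06), the largest difference of any of the 50 genes in any of the 10 comparisons. Ccnd1 moved the other way, from 188 and 181 to 411 and 364 (2.09-fold, adjusted p = 0.00143), and Cdk4 from 867 and 865 to 1157 and 1274 (1.40-fold, adjusted p = 0.0123). Ccnd3 fell 1.37-fold from 1927 and 1941 to 1601 and 1249 (adjusted p = 0.0373). All 3 D-type cyclins thus passed, in both directions. Cdkn1b, at 581 and 687 against 614 and 655, differed by 0.00 ± 0.13 on the log2 scale, and Cdk6, at 15923 and 17679 against 22059 and 19535, by 0.31 ± 0.12 (adjusted p = 0.0918). The inhibitors Cdkn1a, from 49.9 and 46.5 to 126 and 155, and Cdkn2c (p18), from 194 and 140 to 694 and 515, rose 2.86- and 3.61-fold. Cdkn1c stood at 20.6 and 1.72 against 20.8 and 20.9 (adjusted p = 0.308). Of the further genes 14 of 50 mitotic ones fell and 1 rose, led by the central spindle motors Kif23 (709 and 811 against 383 and 289) and Kif4 (661 and 637 against 366 and 345), and 5 of 40 S-phase ones fell.

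The untimed Daxx-KO KLS libraries also differed in the genes that define the population. Kit stood at 6477 and 7033 in WT against 3400 and 3193 in Daxx-KO. Ly6a, which encodes Sca-1, lay the other way, at 136 and 114 against 474 and 485. Of 8 stem cell genes 7 were tested and all 7 fell, their sum going from 2788 and 2577 to 139 and 105 RPM, with Mecom at 11791 and 11284 normalized read counts in WT and no more than 39.4 in Daxx-KO. Of 8 GMP genes 7 rose, their sum going from 209 and 109 to 1747 and 2288. Late neutrophil genes summed to 869 RPM in WT library 1 and 5.58 in WT library 2. The part of these markers in the change of cell cycle genes was not tested. The count of 12 genes rests on both Daxx-KO libraries, since it was lower without either of them. It was also lower without WT library 2, with the lone library then assumed to vary like the others.

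At 3 w.p.i., Daxx-KO KLS cells showed higher average levels of most cell cycle genes, but no gene passed. None of the 50 was called by limma or by edgeR and 2 were called by DESeq2, when 0.257% of 15200 genes were called by limma. At an unadjusted p under 0.05 there were 9, all higher, against 11.7% of all genes. The median log2 difference was 0.54 over the 50 genes and 0.00 over all genes, and 46 of 50 were positive. The median depended on single libraries, being 0.25 without Daxx-KO library 2 and 0.33 without WT library 1, and it was 0.86 with the replicate number as a block. All Daxx-KO libraries exceeded all WT libraries for 11 of the 50 genes, 8 of them in S phase and none mitotic, where 9.07% of all genes did so.

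Ccnd1 stood at 645, 572 and 593 normalized read counts in Daxx-KO and 363, 297 and 231 in WT (log2 difference 1.04 ± 0.25, adjusted p = 0.167), without overlap, and Pcna at 1111, 2021 and 1119 against 951, 985 and 989 (0.48 ± 0.22, adjusted p = 0.435), also without overlap. Mki67 stood at 9960, 33269 and 10204 in Daxx-KO against 5840, 11437 and 15800 in WT, and Top2a at 5234, 12252 and 5274 against 2542, 4248 and 6873. The spread of the mitotic genes came from single libraries, as Daxx-KO library 2 was highest and the unnumbered library was the highest of WT. The mean mitotic level relative to WT was 0.20, 1.47 and 0.40 in Daxx-KO libraries 1, 2 and 3 and -0.68, -0.12 and 0.81 in WT libraries 1, 2 and u. Ccnb1 (152, 511 and 230 against 108, 141 and 211), Mcm2 (2981, 4701 and 2722 against 2164, 2921 and 2655), Mcm5 (2662, 3960 and 2395 against 1714, 2206 and 2568) and Ccne1 (143, 190 and 98.3 against 61.6, 132 and 86.0) overlapped between groups, with adjusted p of 0.461 to 0.543. Cdk6 (15884, 22027 and 15934 against 20401, 23255 and 21842) and Cdkn1b (613, 848 and 551 against 742, 572 and 539) had adjusted p of 0.559 and 0.873.

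The 2 libraries that stood apart in the cell cycle also stood apart in markers of other cells. In Daxx-KO library 2 the 10 B lineage genes summed to 3803 RPM against 654 and 1136 in the other Daxx-KO libraries, and in the unnumbered WT library GMP genes summed to 3365 and late neutrophil genes to 1995 against at most 996 and 171 in the other WT libraries. Rag1, the recombinase of developing lymphocytes, was listed at 0 in all libraries. The part of these cells in the spread was not tested. Without both libraries again 0 of the 50 genes passed in limma. Of the wider list, Cdkn1a stood at 144, 311 and 167 against 64.8, 45.9 and 37.0 (log2 difference 2.01 ± 0.40, adjusted p = 0.105), Cdkn1c at 61.1, 43.1 and 85.8 against 92.9, 87.4 and 49.0 (adjusted p = 0.834), and none of the further S-phase or mitotic genes passed by limma, edgeR or DESeq2, and 7 of 40 and 2 of 50 had an unadjusted p under 0.05.

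DKO KLS cells at 3 w.p.i. had higher levels of mitotic genes than WT. Of the 50 genes 19 rose and 1 fell, when 17.6% of 15200 genes changed, 9.24% up and 8.40% down. Over the 50 genes the median log2 difference was 1.00, with 1.56 for mitotic genes, 0.53 for S-phase genes and 0.00 over all genes. Without DKO library 1 the median of the 50 genes was 0.67 and that of S-phase genes 0.24, and without WT library 1 the S-phase median was 0.33. Of the mitotic genes 14 rose and all 20 were higher in both DKO libraries than in every WT library, as 26.0% of all genes were. Of the S-phase genes 5 rose, namely Pcna, Rrm2, Ccne1, Ccne2 and E2f2.

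Plk1 had the largest difference, at 1363 and 817 normalized read counts in DKO against 107, 123 and 471 in WT libraries 1, 2 and u (log2 difference 2.52 ± 0.66, adjusted p = 0.0287). Ccnb1 stood at 689 and 540 against 108, 141 and 211 (2.04 ± 0.46, adjusted p = 0.016), and Ccna2, the cyclin of late S phase and G2, at 1812 and 1194 against 272, 324 and 712 (1.88 ± 0.44, adjusted p = 0.0187). In each, the unnumbered WT library lay between the other WT libraries and the DKO libraries. Cdk1, the mitotic kinase, stood at 1467 and 1229 against 253, 512 and 685 (3.00-fold), Ccnb2 at 1171 and 908 against 237, 299 and 513 (3.11-fold), and Cdc25c at 205 and 186 against 38.9, 50.3 and 97.0 (3.35-fold), with adjusted p of 0.0211, 0.0235 and 0.019. Kif11, at 5579 and 3832 against 648, 1094 and 2114, and Birc5, the survivin subunit of the Aurora B complex, at 1070 and 781 against 108, 218 and 424, were 4.04- and 4.23-fold higher. Mki67 (49799 and 18102 against 5840, 11437 and 15800) and Top2a (14271 and 9040 against 2542, 4248 and 6873) did not overlap with WT and did not pass, with adjusted p of 0.105 and 0.0539.

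Among S-phase genes, Rrm2, the small subunit of ribonucleotide reductase, stood at 3360 and 2157 in DKO and 347, 529 and 1082 in WT (4.61-fold, adjusted p = 0.019). Ccne1 stood at 354 and 246 against 61.6, 132 and 86.0 (3.30-fold, adjusted p = 0.0172) and Pcna at 1905 and 1573 against 951, 985 and 989 (1.77-fold, adjusted p = 0.0431). The helicase subunits did not pass. Mcm2, at 4365 and 2792 against 2164, 2921 and 2655, and Mcm5, at 3352 and 2409 against 1714, 2206 and 2568, overlapped with WT (adjusted p of 0.273 and 0.285). Ccnd1 was the 1 gene that fell, at 86.2 and 147 against 363, 297 and 231 (log2 difference -1.37 ± 0.27, adjusted p = 0.00959). Cdk6 (31529 and 23956 against 20401, 23255 and 21842) and Cdkn1b (831 and 615 against 742, 572 and 539) had adjusted p of 0.295 and 0.551. Of the further genes 28 of 50 mitotic and 11 of 40 S-phase ones rose and none fell, led by the repressor E2f7 (1862 and 1227 against 324, 460 and 595), Dut, which removes dUTP (2405 and 2083 against 924, 1052 and 1273), and the checkpoint gene Mad2l1 (932 and 872 against 325, 377 and 516). Cdkn1a rose 2.85-fold to 195 and 98.3 from 64.8, 45.9 and 37.0 (adjusted p = 0.0436), and Cdkn1c stood at 39.3 and 53.0 against 92.9, 87.4 and 49.0 (adjusted p = 0.34).

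In the same DKO libraries GMP genes summed to 7022 and 8097 RPM against 380, 996 and 3365 in WT, and late neutrophil genes to 10853 and 9762 against 171, 37.6 and 1995, with 3 of 8 genes of each list higher and none lower. Stem cell genes summed to 884 and 1358 against 3800, 3843 and 2520, with 2 of 7 tested genes lower. No GMP marker was listed at 0. The part of these markers in the rise was not tested. The count of 20 genes depended on single libraries, being 26 without the unnumbered WT library and 2 without WT library 1 or WT library 2. It was lower without either DKO library, with 1 DKO library then left, and edgeR called 11. The share of all genes called in these fits is not given here.

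**Figure D4:**
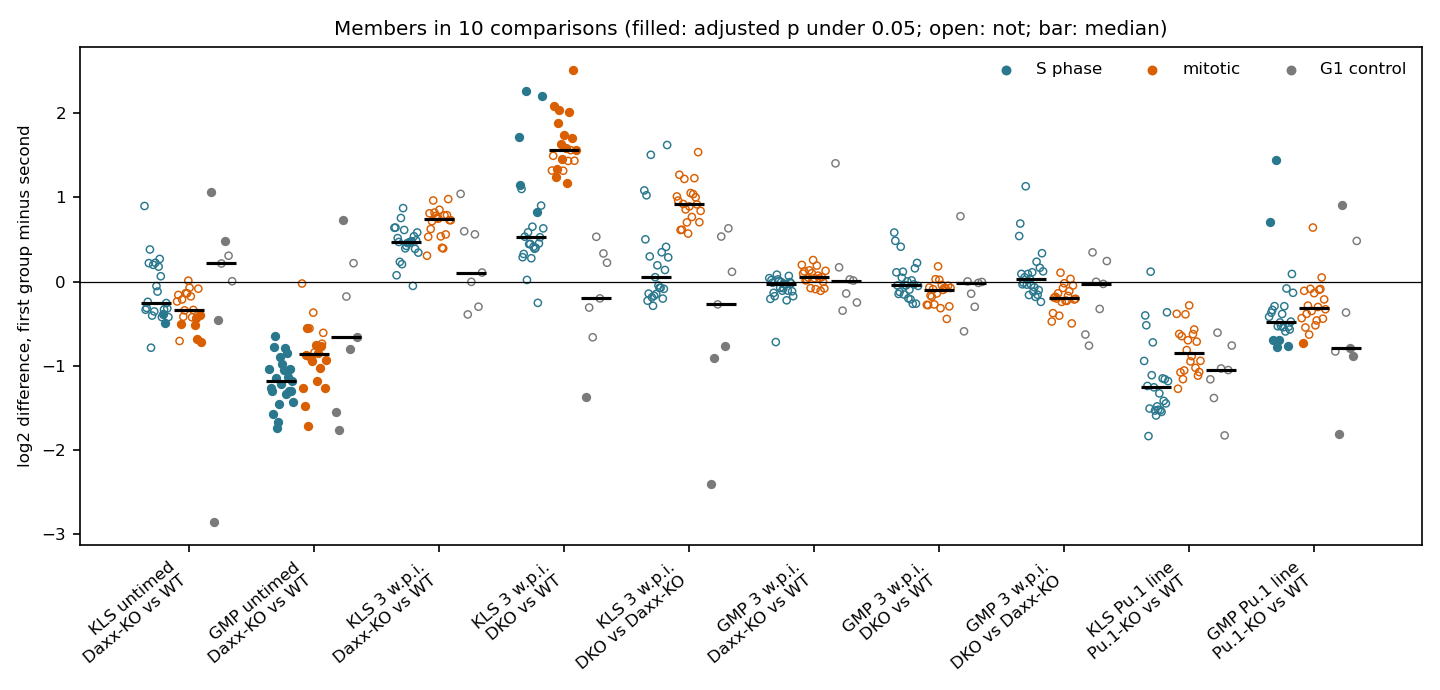
Log2 difference of every member in the 10 comparisons, by class (filled points, adjusted p under 0.05; open points, not; black bars, medians). Median differences of S-phase and mitotic members were -1.18 and -0.86 in untimed Daxx-KO GMPs and 0.53 and 1.56 in DKO KLS cells at 3 w.p.i.

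Set against Daxx-KO instead of WT, the same DKO KLS libraries, which both comparisons share, gave limma calls in G1 genes only. No S-phase gene was called by limma or edgeR and 1 by DESeq2, with 4 at an unadjusted p under 0.05, and of the mitotic genes none was called by limma or edgeR and 1 by DESeq2, with 6 at an unadjusted p under 0.05. Of the 50 genes 0 rose and 3 fell, when 15.4% of all genes changed, 8.17% up and 7.22% down, and 29.1% had an unadjusted p under 0.05. The median log2 difference was 0.55 over the 50 genes, 0.92 for mitotic and 0.05 for S-phase genes, against -0.01 over all genes. The S-phase median changed sign with the libraries used, from -0.15 without DKO library 1 and -0.10 without Daxx-KO library 3 to 0.29 without Daxx-KO library 2, and it was -0.04 without Daxx-KO library 1. Without DKO library 1 the median of the 50 genes was 0.26. Ccnd1 stood at 86.2 and 147 normalized read counts in DKO and 645, 572 and 593 in Daxx-KO, 5.30-fold lower (adjusted p = 0.000526), Ccnd2 at 2483 and 2775 against 4527, 5735 and 4581, 1.87-fold lower (adjusted p = 0.0031), and Cdk4 at 1031 and 1290 against 1579, 2524 and 1873, 1.69-fold lower (adjusted p = 0.0285). All 3 encode D-type cyclins or a kinase that they bind, while Cdk6, the other such kinase, lay higher in DKO without passing.

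Daxx-KO library 2 overlapped with DKO for Mki67 (49799 and 18102 against 9960, 33269 and 10204, adjusted p = 0.309) and Top2a (14271 and 9040 against 5234, 12252 and 5274, adjusted p = 0.34). Ccnb1 had a log2 difference of 1.22 ± 0.46 (adjusted p = 0.11), Ccne1 of 1.08 ± 0.40 (adjusted p = 0.0992), Cdk6 of 0.63 ± 0.21 (adjusted p = 0.0673) and Pcna of 0.35 ± 0.24 (adjusted p = 0.387). Mcm2, Mcm5 and Cdkn1b differed by 0.05, -0.05 and 0.12, with adjusted p of 0.799 to 0.932. Without Daxx-KO library 2 the count of genes that changed was 10 in place of 3, and without the unnumbered WT library, which enters only the estimate of spread, it was 5. The share of all genes called in these 2 fits is not given here. Of the wider list, Rb1, the retinoblastoma gene, rose from 1009, 822 and 865 to 1750 and 1440, the CDK-binding Cks2 from 118, 201 and 119 to 436 and 439, and E2f7 from 586, 790 and 628 to 1862 and 1227. Cdkn1a and Cdkn1c had adjusted p of 0.516 and 0.611.

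In GMPs at 3 w.p.i. none of the 50 genes passed in any of 3 comparisons, which share the same 8 libraries. Limma, edgeR and DESeq2 each called 0 in Daxx-KO against WT, in DKO against WT and in DKO against Daxx-KO. Over all 13714 genes limma called 0.0948%, 0.292% and 0.0583%. At an unadjusted p under 0.05 there were 1, 2 and 2 of the 50 genes, where 3.16%, 7.01% and 8.05% of all genes reached that level. Median log2 differences of the 50 genes were 0.00, -0.07 and -0.07, with -0.01 over all genes each time. These medians had no fixed sign, as they ran from -0.18 (without WT library b) to 0.06 (without WT library c), from -0.21 (without WT library b) to 0.07 (without DKO library a) and from -0.17 (without DKO library b) to 0.07 (without DKO library a).

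The spread within the WT group was wide for mitotic genes and narrow for S-phase genes. Ccnb1 stood at 706, 189 and 839 normalized read counts in WT libraries a, b and c, at 635, 486 and 480 in Daxx-KO and at 314 and 509 in DKO, and Mki67 at 36902, 25335 and 44915, at 30908, 48532 and 22293 and at 41160 and 26360. Top2a gave 14162, 7957 and 17855 in WT, 13153, 12801 and 10092 in Daxx-KO and 10089 and 10512 in DKO. For all 3 genes the deleted libraries lay inside or near the range of WT, whose library b was lowest. Mcm2 was steadier at 5188, 5058 and 5028 in WT, 5594, 4189 and 4836 in Daxx-KO and 4263 and 5732 in DKO, as was Mcm5 at 5215, 4502 and 5613, at 5139, 4452 and 4896 and at 3640 and 5401. Late neutrophil genes varied within each group, summing to 21208, 4364 and 16544 RPM in WT, 2975, 21198 and 3275 in Daxx-KO and 12394 and 8403 in DKO, and their part in the spread of mitotic genes was not tested.

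In these GMPs the largest positive difference was that of Ccnd1, at 396, 272 and 358 in Daxx-KO against 160, 206 and 62.0 in WT, without overlap (log2 difference 1.40 ± 0.48, adjusted p = 1), and at 130 and 366 in DKO. Ccne1 stood at 477 and 329 in DKO against 280, 225 and 293 in WT (0.58 ± 0.25, adjusted p = 0.691) and 304, 288 and 230 in Daxx-KO (0.54 ± 0.25, adjusted p = 0.659). Pcna (2490, 1607 and 2128 in WT, 1814, 1539 and 1923 in Daxx-KO, 1749 and 2433 in DKO), Cdk6 (19068, 25161 and 16522, then 20877, 18748 and 20771, then 20814 and 18701) and Cdkn1b (811, 581 and 719, then 512, 819 and 482, then 794 and 609) overlapped in all 3 comparisons. Cdkn1a stood at 245 and 200 in DKO against 90.4, 99.7 and 87.1 in WT (log2 difference 1.25 ± 0.27, adjusted p = 0.145) and 94.7, 115 and 119 in Daxx-KO (adjusted p = 0.241). Cdkn1c, at 0.883 to 21.3, was under the filter and was not tested. None of the 40 further S-phase or 50 further mitotic genes passed by limma, edgeR or DESeq2, or at an unadjusted p under 0.05.

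The Pu.1 line asked what loss of Pu.1 alone does, and its 2 Pu.1-KO KLS libraries lay far apart from each other. Of the 50 genes 0 passed by limma in Pu.1-KO against WT, 2 by edgeR and 3 by DESeq2, when 0.810% of 23459 genes were called by limma. At an unadjusted p under 0.05 there were 18, all lower, against 25.9% of all genes. The median log2 difference was -1.06 over the 50 genes, -1.25 for S-phase genes, -0.85 for mitotic genes and 0.12 over all genes. With trimmed-mean (TMM) scaling all genes shifted to 0.30 and the 50 genes stood at -0.91.

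Of the helicase genes, Mcm2 stood at 2554 and 1246 normalized read counts in Pu.1-KO libraries a and b against 5777 and 4598 in WT (log2 difference -1.53 ± 0.67, adjusted p = 0.141). Mcm5 stood at 2324 and 975 against 5220 and 3579 (-1.52 ± 0.65, adjusted p = 0.134). Cdc45 overlapped with WT, at 930 and 337 against 964 and 668. Pcna stood at 853 and 221 against 1469 and 1098 (-1.55 ± 0.58, adjusted p = 0.095). Library b was low for nearly every gene here, and library a near WT for mitotic genes, with Mki67 at 26445 and 6694 against 30348 and 24084 and Top2a at 9205 and 2903 against 13119 and 9017. As a share of gene reads, mitotic genes summed to 3952 RPM in library a and 1771 in library b against 3678 and 3454 in WT. S-phase genes summed to 2355 and 1425 against 3437 and 3100. Ccnb1 (251 and 73.6 against 306 and 263), Ccne1 (297 and 126 against 426 and 327), Cdk6 (18380 and 5467 against 22380 and 19236), Ccnd1 (172 and 132 against 408 and 279) and Cdkn1b (737 and 335 against 1090 and 649) had adjusted p of 0.201 to 0.496. Kit, which defines the sort, was itself at 2636 in library b against 7411 in library a and 11642 and 9582 in WT, and late neutrophil genes summed to 7820 and 5249 RPM against 2073 and 1408. Their part in the fall was not tested. Without library a the median of the 50 genes was -1.68, with library b then alone in its group. Without library b the median was -0.43 over the 50 genes, -0.74 for S-phase genes and -0.15 for mitotic genes. Cdkn1a (189 and 103 against 190 and 93.7) and Cdkn1c (32.7 and 18.6 against 84.0 and 52.3) had adjusted p of 0.946 and 0.285, and no further S-phase or mitotic gene passed by limma or edgeR and 1 S-phase gene by DESeq2, while 12 of 40 and 5 of 50 had an unadjusted p under 0.05.

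In GMPs of the Pu.1 line the calls fell on 4 of 7 G1 genes, 6 of 23 S-phase genes and 1 of 20 mitotic genes. Of the 50 genes 3 rose and 8 fell, when 17.6% of 19337 genes changed, 9.15% up and 8.49% down, so the share changed was near that of all genes. The median log2 difference was -0.38 over the 50 genes and 0.00 over all genes, with -0.19 without Pu.1-KO library a and -0.60 without Pu.1-KO library b. As a share of gene reads, the sum of the mitotic genes was not lower, at 5539 and 6319 RPM in Pu.1-KO against 5460 and 5972 in WT. S-phase genes summed to 3500 and 3783 against 3919 and 4206. Mki67 held the most reads of the mitotic sum, which says little of single members. The mean log2 level of the 20 mitotic genes relative to WT was -0.51 and -0.03 in Pu.1-KO, against -0.10 and 0.10 in WT. Ccnd2 stood at 570 and 631 normalized read counts in Pu.1-KO and 1948 and 2267 in WT, 3.50-fold lower (adjusted p = 1.12e-11), Cdk4 at 1001 and 1557 against 1971 and 2374 (1.73-fold lower, adjusted p = 0.0102), and Cdk6 at 9553 and 14006 against 20545 and 22171 (1.84-fold lower, adjusted p = 0.0267). Ccnd3 rose, from 1636 and 1550 to 2798 and 3224 (1.89-fold, adjusted p = 0.00262). Ccnd1 (60.1 and 36.0 against 78.3 and 88.8, adjusted p = 0.2), Cdkn1b (647 and 713 against 495 and 477, adjusted p = 0.159) and Cdk2 did not pass.

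Among S-phase genes, E2f2 rose from 688 and 629 to 1946 and 1650 (2.72-fold, adjusted p = 2.26e-07), and so did Ccne2. Pola1 fell from 3541 and 4014 to 2044 and 2402 (1.70-fold lower, adjusted p = 0.0146), Mcm10 from 1761 and 1744 to 928 and 1265 (1.62-fold lower, adjusted p = 0.0267), Cdt1, the licensing factor, from 1540 and 1628 to 778 and 1239 (1.61-fold lower, adjusted p = 0.0284), and Gins1 fell too. Aurkb, the kinase of the chromosomal passenger complex, was the only mitotic gene of the 20 to pass, at 721 and 1078 against 1412 and 1509 (adjusted p = 0.0204). Mki67 (25716 and 35614 against 29698 and 34833), Top2a (9203 and 13664 against 12362 and 13636) and Pcna (789 and 911 against 843 and 954) overlapped with WT. Ccnb1 (203 and 318 against 358 and 432), Mcm2 (3130 and 3912 against 4730 and 5071), Mcm5 (2978 and 4022 against 4699 and 5399) and Ccne1 (234 and 360 against 380 and 397) lay below WT with adjusted p of 0.0983 to 0.274.

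Of the wider list, Cdkn2d (p19) rose from 231 and 251 to 504 and 403, the E2F repressor E2f4 fell from 3045 and 2926 to 1359 and 2343, and the polymerase delta subunit Pold2 fell from 638 and 833 to 340 and 544. Cdkn1a (183 and 201 against 113 and 112) and Cdkn1c (13.9 and 6.85 against 9.52 and 11.8) had adjusted p of 0.104 and 0.955, and 4 of 40 further S-phase and 3 of 50 further mitotic genes fell. In the same libraries all 8 late neutrophil genes rose, from 2618 and 1996 to 15209 and 12007 RPM in sum, and 4 of 8 GMP genes fell and 1 rose, from 19921 and 20684 to 10230 and 14637. Their part in these changes was not tested. The count of 11 genes depended on single libraries, and leaving any of them out left 1 library in its group.

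The D-type cyclins did not keep 1 direction across the 6 tables. Ccnd1 passed upwards in untimed Daxx-KO KLS cells, and downwards in untimed Daxx-KO GMPs and in DKO KLS cells at 3 w.p.i. against both WT and Daxx-KO. Ccnd2 passed downwards 4 times, in both untimed populations, in DKO against Daxx-KO KLS cells and in Pu.1-KO GMPs, and its separated values in KLS cells without Daxx at 3 w.p.i. (4527, 5735 and 4581 against 3203, 3401 and 3151) lay above WT without passing. Ccnd3 passed upwards in untimed Daxx-KO GMPs (977 and 1021 against 621 and 586) and Pu.1-KO GMPs and downwards in untimed Daxx-KO KLS cells. Cdk2, Cdc25b and Aurka passed in none of the 10 comparisons.

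**Figure D5:**
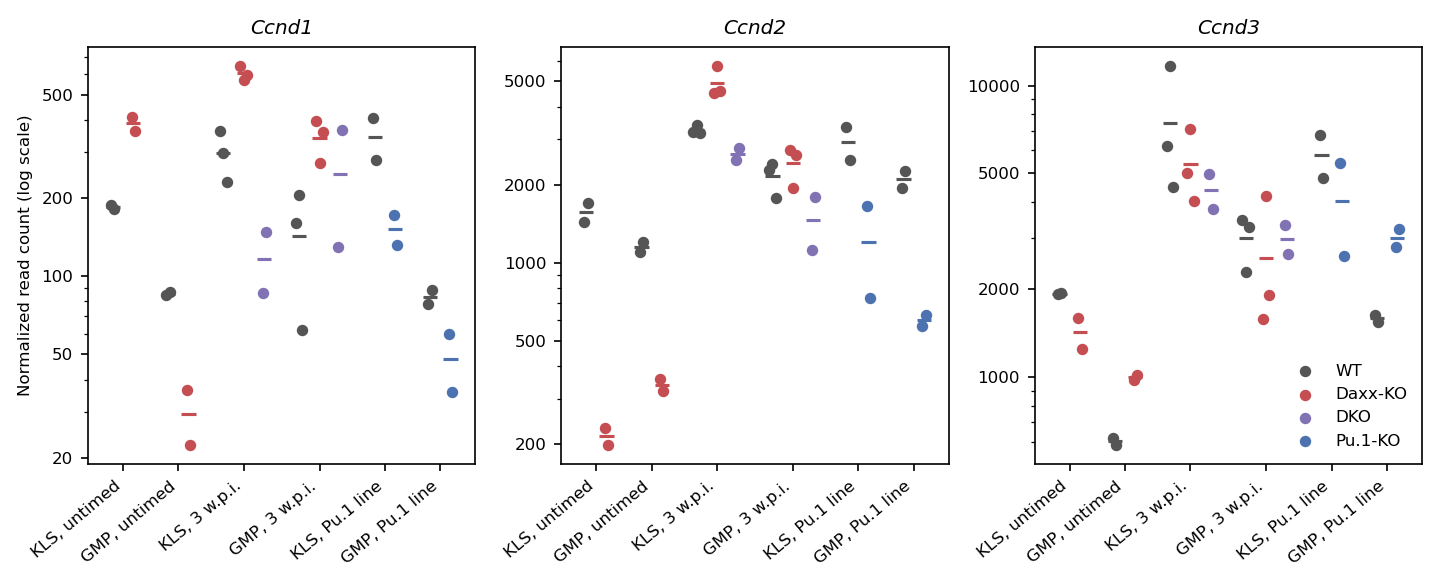
Normalized read counts of the D-type cyclins Ccnd1, Ccnd2 and Ccnd3 in each library of 6 tables on a log axis (points, libraries; bars, group means; each table scaled on its own). Ccnd2 lies at 232 and 199 in untimed Daxx-KO KLS cells against 1431 and 1700 in WT, and at 570 and 631 in Pu.1-KO GMPs against 1948 and 2267.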

How the data were processed

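RNA-seq was done on sorted bone marrow populations, and 8 gene tables with 36 libraries were used here (32 libraries in 10 comparisons, 4 WT libraries at 24 w.p.i.). Per the submitters' processing notes and the study's methods, the authors demultiplexed reads with CASAVA 1.8.4 and trimmed them with cutadapt 1.13. Alignment to mm10 was done with STAR 2.5.3 and normalization with DESeq2 1.16.1. For RNA-seq, the methods name CASAVA only for cells of transplanted mice, which were sequenced on another instrument than cells taken directly from induced mice. The counter and its strand setting are not given in the sources used here, so reads of overlapping or antisense genes cannot be told apart. The deposited values are normalized read counts, a signal obtained by dividing reads by 1 size factor per library, and whole reads were recovered from all libraries within 0.01. Reads per 1000000 gene reads (RPM) and, over GENCODE exon lengths, RPM per kilobase were computed from those reads. The columns of MPP and LT-HSC libraries and of the other libraries at 24 w.p.i. could not be matched to 1 labelled group each, so 75 columns of 111 and 23 of 59 samples were not analysed here.

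The main test was limma 3.58.1 (R 4.3.3, trend) on log2(value + 1), for genes with a mean of at least 10, with all libraries of a table in 1 fit and Benjamini-Hochberg adjustment over all genes tested; fold changes are on that scale, which understates changes of low genes. Depth was 3388906 to 29335964 gene reads per library. Alternatives were TMM scaling, edgeR 4.0.16 and DESeq2 1.42.0 on recovered reads, other filters and pseudocounts, fits of only the 2 groups compared, leaving out each library and a replicate block. Libraries left out beyond these were chosen after seeing the data. Replicate numbers shared by groups did not mark deviations in common (correlations of -0.21 to 0.13), so no block was used. Scripts were tested on simulated data.

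The members and lists were chosen with earlier results of these data known. Named in every comparison were 10 fixed members, up to 8 further called members with the smallest adjusted p, Cdkn1a and Cdkn1c. Up to 3 other called pathway genes were named too. Values of the targeted genes Daxx and Spi1 are given for some comparisons only. Members named beyond this rule, such as the ends of a range, were chosen after their values were seen.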

Additional observations from a re-analysis of the deposited data

Results flagged for a closer look

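For 6 pairs of effects the libraries of one set all moved one way and those of the other set the opposite way, relative to their own WT libraries, in Daxx-KO against WT. Only class means and members named in both tables of a pair were searched. No share over all genes was computed, so the count does not set these members apart from other genes. None of these differences between sets was tested, since the sets lie in separately scaled tables, and groups of 2 or 3 libraries are too small for a check of single outlying libraries. Ccnd1 differed by -1.55 on the log2 scale in untimed GMPs and by 1.40 in GMPs at 3 w.p.i., and by 1.07 in untimed KLS cells. Ccnd2 differed by -2.85 in untimed KLS cells and by 0.60 in KLS cells at 3 w.p.i. Ccne1 differed by 0.90 in untimed KLS cells and by -1.04 in untimed GMPs, and Mcm2 by 0.22 and -0.89 in the same sets. Pcna differed by -0.42 in untimed KLS cells and by 0.48 in KLS cells at 3 w.p.i. The untimed set carries no time or mouse line on its labels, so transplantation, library kit, age, induction and line cannot be told apart from the set itself.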

How the results depend on the processing

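The counts of genes called among the 50 moved as follows. The share of all genes called under each alternative is not given here. These counts thus do not show whether the members moved apart from all genes. In untimed KLS cells, Daxx-KO against WT gave 12 genes, 4 with no filter on low values and 1 to 10 when a library was left out. In KLS cells at 3 w.p.i., Daxx-KO against WT gave 0 genes and 2 with DESeq2. DKO against WT gave 20 genes, 11 with edgeR, 13 with no filter and 0 to 26 when a library was left out. DKO against Daxx-KO gave 3 genes, 6 with DESeq2, 5 without the unnumbered WT library and 2 to 10 when a library was left out. In the Pu.1 line, KLS cells gave 0 genes, 2 with TMM scaling, 2 with edgeR, 3 with DESeq2 and 0 to 37 when a library was left out, and GMPs gave 11 genes and 1 to 41. The mean G1 gene level of Pu.1-KO GMPs moved to -0.37 with TMM scaling. Medians near 0 changed sign, in GMPs at 3 w.p.i. for all 3 comparisons, and in KLS cells at 3 w.p.i. for S-phase genes in DKO against Daxx-KO (0.05, with -0.10 under a replicate block) and for G1 genes in Daxx-KO against WT (0.11, with -0.07 without Daxx-KO library 2). The cause of these shifts was not tested. In untimed GMPs and in the 3 comparisons of GMPs at 3 w.p.i. the counts stayed within 1.5 times under all alternatives run. Where leaving out a library left 1 in its group, that library was assumed to vary like the others.

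With a replicate block the counts were 13 in untimed KLS cells, 42 in untimed GMPs (44 with crossed numbers, an alternative chosen after seeing the data) and 0, 24 and 2 in KLS cells at 3 w.p.i. for Daxx-KO against WT, DKO against WT and DKO against Daxx-KO. For GMPs at 3 w.p.i. and the Pu.1 line no blocked fit was made, because their columns could not be matched to the replicate numbers in the titles. The other 11 of 21 planned comparisons (24 w.p.i., MPP and LT-HSC) were not run, as their columns could not be matched to groups. Every library held at least 3388906 gene reads, but groups of 2 or 3 libraries limit what any comparison can show.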

Other observations

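The 4 WT libraries at 24 w.p.i. enter no test. In them the S-phase genes summed to 3331 and 3925 RPM in KLS cells and 3848 and 3963 in GMPs, and the mitotic genes to 4170 and 4563 against 5648 and 6050. The KLS values lay above those of all WT KLS libraries at 3 w.p.i. outside the Pu.1 line (2036 to 2704 for S-phase and 1032 to 2854 for mitotic genes), in a table scaled separately and with 2 libraries only.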
